A study of Mus musculus with 12 samples.

Results

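Resident lung fibroblasts are the mesenchymal cells that build and maintain the alveolar and airway walls, and 9 genes that mark them were followed here: Fgf10, Pdgfra, Tcf21, Tbx4, Tbx5, Npnt, Mfap4, Inmt and Limch1. They were chosen by name, out of 19937 genes with a probe set of their own, after earlier results of these arrays had shown low Npnt, Inmt and Tcf21 in wild type hosts exposed to smoke. No source states which comparison the choice rested on. Smoke against air in wild type hosts was taken to be it, and comparisons that use the wild type smoke arrays are therefore given as descriptions of the 9 genes, with no test. The genotype comparison in air shares its wild type air arrays, so p-values there are not independent of the choice of genes. Each of the 9 genes had 1 probe set that named it alone, so no choice between probe sets was needed.

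The RNA came from Lewis lung carcinoma, a transplantable mouse lung tumour line, taken from lungs of C57BL/6 mice, all female, and hybridised to 12 Affymetrix arrays. The 4 groups of 3 arrays were RelA/p65 deficient hosts exposed to smoke, RelA/p65 deficient hosts exposed to air, wild type hosts exposed to smoke and wild type hosts exposed to air, called deficient smoke, deficient air, wild type smoke and wild type air below. RelA/p65 is one of the NF-kB proteins, which switch on inflammatory genes. The series title speaks of myeloid cells, but the sample labels name no promoter, Cre or allele, and all 4 groups carried the tumour.

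Fibroblasts of the adult lung answer to growth factors and make the elastic and basement membrane scaffold on which the alveolar epithelium sits. In development, FGF10 from the mesenchyme drives branching and growth of the epithelium, PDGF from the epithelium acts back on mesenchymal cells that carry PDGFRA, and the transcription factors Tbx4, Tbx5 and Tcf21 set up the lung mesenchyme. Several of these genes are not particular to fibroblasts: Npnt and Limch1 are also made by alveolar epithelium, Mfap4 by smooth muscle and Tbx5 by heart muscle.

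Promoters of 3 of the genes are shown because the 9 genes moved largely together: Inmt had the widest span between groups, Fgf10 one of the narrowest, and Tbx4 lay between. The sequences are those of RefSeq on GRCm38.p6, from 250 bases before to 50 bases after the annotated start, on the strand of the gene. Capitals mark matches on either strand to a T-box core (AGGTGT), an E-box of the kind bound by helix-loop-helix factors such as Tcf21 (CAGCTG), a forkhead site (TGTTTAC) and a TATA box (TATAAA), none of which overlapped.
Inmt (chr6:55174941-55175240, minus strand): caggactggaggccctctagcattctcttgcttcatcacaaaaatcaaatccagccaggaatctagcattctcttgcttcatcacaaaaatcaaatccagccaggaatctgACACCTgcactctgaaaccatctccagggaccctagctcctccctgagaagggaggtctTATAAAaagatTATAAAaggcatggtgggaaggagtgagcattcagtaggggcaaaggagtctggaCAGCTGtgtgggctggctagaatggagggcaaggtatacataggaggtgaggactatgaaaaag
Tbx4 (chr11:85896515-85896814, plus strand): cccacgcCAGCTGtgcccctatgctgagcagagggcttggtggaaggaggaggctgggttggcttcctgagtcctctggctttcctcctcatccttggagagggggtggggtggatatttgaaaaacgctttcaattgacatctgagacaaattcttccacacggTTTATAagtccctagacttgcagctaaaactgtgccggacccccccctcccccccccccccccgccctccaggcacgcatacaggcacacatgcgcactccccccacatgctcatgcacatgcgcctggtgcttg
Fgf10 (chr13:118714449-118714748, plus strand): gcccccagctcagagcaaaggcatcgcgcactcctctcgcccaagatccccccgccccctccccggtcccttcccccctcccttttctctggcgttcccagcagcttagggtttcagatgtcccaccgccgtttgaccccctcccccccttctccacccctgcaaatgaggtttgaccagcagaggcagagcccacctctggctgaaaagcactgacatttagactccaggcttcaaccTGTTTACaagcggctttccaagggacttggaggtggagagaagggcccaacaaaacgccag
The Inmt window held a T-box core on the opposite strand at position -139 from the start, 2 TATA boxes at -80 and -69 and an E-box at -14. The Tbx4 window held an E-box at -243 and a TATA box on the opposite strand at -85, and the Fgf10 window a forkhead site at -11. Among 10 windows of the 7 matched genes, the T-box core, the E-box and the forkhead site were each in 2 and the TATA box in 3, against 13.7%, 16.3%, 3.65% and 13.6% of all 32851 windows. These matches describe letters and show no binding.

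The targeted gene itself, Rela, was no lower under the deficient labels. Its log2 expression was 9.30, 9.37 and 9.27 in deficient smoke, 9.45, 9.44 and 9.38 in deficient air, 9.04, 9.01 and 9.19 in wild type smoke, and 9.25, 9.16 and 9.26 in wild type air. It was higher in the arrays labelled deficient by 0.20 in air and 0.23 in smoke (limma, adjusted p = 0.0285 and 0.00873). Median centring gave 0.12 and 0.090, which did not pass (limma, adjusted p = 0.142 and 0.213). In air the call was also lost without replicate 1 or 2 of deficient air or replicate 2 of wild type air (limma, adjusted p = 0.0797, 0.09 and 0.106). The sample labels do not say which part of the gene was removed, or in which cells. Total Rela of such bulk tissue therefore cannot decide whether p65 was lost, and the deficient groups are groups by label only. Array medians lay between 7.26 and 7.51, and arrays of a group correlated with r of 0.990 to 0.998 across genes.

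Levels are log2 expression as the authors deposited it, differences are on the log2 scale with the standard error (SE) of limma, and p-values are adjusted over all 19937 genes with a limit of 0.05. Whether the 3 arrays of a group stand for 3 animals is not stated, so p-values reflect array-to-array spread only, which may be technical. Precision is limited by having 3 arrays a group. In such bulk tissue fewer cells of a type and less RNA per cell cannot be told apart.

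Across the groups the 9 genes had 1 common low point, wild type smoke, where every one of them lay below all arrays of the other 3 groups. The genes were noticed for low values in those arrays, so nothing is read from this count. Against wild type air alone, 16.2% of all genes lay lower in every wild type smoke array. The share of all genes below all 3 other groups was not counted. The deficient groups had the highest means for 8 genes, Fgf10 being the exception. For 5 genes (Inmt, Tcf21, Mfap4, Tbx5 and Limch1) the order of means was deficient air, deficient smoke, wild type air and wild type smoke. Npnt, Pdgfra and Tbx4 had the first 2 of these exchanged, and Fgf10 had wild type air between deficient air and deficient smoke. Between the highest and the lowest group mean lay 27.7-fold for Inmt, 17.4-fold for Npnt, 16.2-fold for Tcf21 and 15.3-fold for Limch1, but 2.11-fold for Fgf10 and 1.74-fold for Pdgfra.

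**Figure D1:**
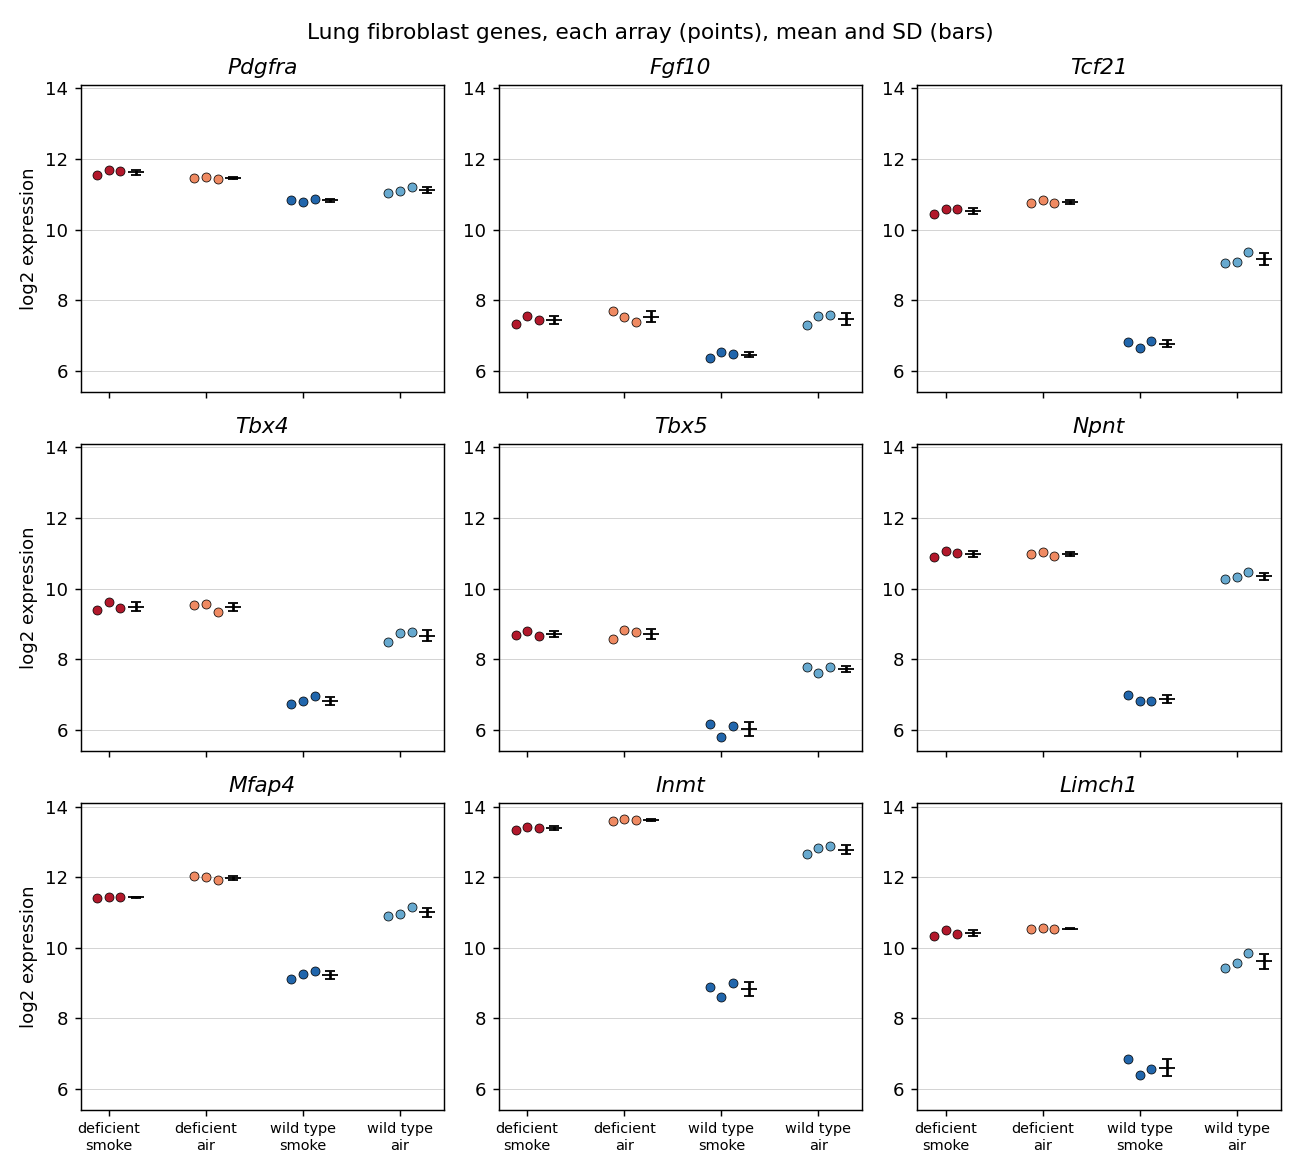
Log2 expression (vertical axis) of the 9 lung fibroblast genes on each array, 1 panel a gene, with points for the 3 arrays of a group and a bar for mean and SD. Wild type smoke is the lowest group in all 9 panels, by far in Inmt, Npnt, Tcf21 and Limch1 and by little in Pdgfra and Fgf10.

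Fgf10 encodes a secreted growth factor of the lung mesenchyme. Its log2 levels were 7.33, 7.55 and 7.43 in deficient smoke and 7.68, 7.52 and 7.39 in deficient air, against 6.37, 6.53 and 6.46 in wild type smoke and 7.28, 7.54 and 7.59 in wild type air. The wild type smoke arrays stood alone at the low end, and the other 3 groups overlapped one another.

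Pdgfra encodes a receptor of platelet-derived growth factors and marks alveolar and adventitial fibroblasts. It was measured at 11.54, 11.67 and 11.66 in deficient smoke, 11.45, 11.48 and 11.42 in deficient air, 10.84, 10.78 and 10.87 in wild type smoke and 11.04, 11.10 and 11.22 in wild type air. No 2 groups overlapped, yet the whole span of group means was 0.80 on the log2 scale.

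Tcf21 encodes a helix-loop-helix transcription factor of mesenchymal progenitors and lipid-storing fibroblasts. The arrays gave 10.44, 10.58 and 10.58 in deficient smoke, 10.76, 10.83 and 10.75 in deficient air, 6.82, 6.65 and 6.84 in wild type smoke and 9.04, 9.09 and 9.37 in wild type air. All 4 groups were separate, and Tcf21 had the widest gap between deficient air and wild type air of the 9 genes.

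Tbx4 and Tbx5 encode related T-box factors of the lung mesenchyme. Tbx4 read 9.40, 9.62 and 9.44 in deficient smoke, 9.53, 9.55 and 9.35 in deficient air, 6.72, 6.81 and 6.94 in wild type smoke and 8.48, 8.73 and 8.77 in wild type air. For Tbx5 the values were 8.68, 8.80 and 8.66 in deficient smoke, 8.56, 8.82 and 8.76 in deficient air, 6.15, 5.79 and 6.11 in wild type smoke and 7.77, 7.61 and 7.77 in wild type air. In both genes the deficient groups overlapped each other and stood clear of both wild type groups.

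Npnt encodes nephronectin, a basement membrane protein and ligand of integrin alpha 8 beta 1. It stood at 10.89, 11.07 and 11.00 in deficient smoke, 10.97, 11.04 and 10.93 in deficient air, 6.98, 6.82 and 6.80 in wild type smoke and 10.26, 10.32 and 10.46 in wild type air. The deficient groups overlapped, wild type air lay below them, and wild type smoke lay far below all of them.

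Mfap4 encodes a microfibril-associated protein of elastic fibres. Its arrays read 11.41, 11.42 and 11.44 in deficient smoke, 12.03, 12.001 and 11.92 in deficient air, 9.11, 9.24 and 9.32 in wild type smoke and 10.91, 10.96 and 11.15 in wild type air. All 4 groups were separate, and smoke arrays were below air arrays in both genotypes.

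Inmt encodes indolethylamine N-methyltransferase, an enzyme abundant in lung, and Limch1 an actomyosin-regulating protein. Inmt reached 13.34, 13.43 and 13.40 in deficient smoke, 13.59, 13.65 and 13.61 in deficient air, 8.88, 8.61 and 8.98 in wild type smoke and 12.65, 12.81 and 12.88 in wild type air. Limch1 was at 10.33, 10.50 and 10.38 in deficient smoke, 10.54, 10.56 and 10.52 in deficient air, 6.85, 6.37 and 6.57 in wild type smoke and 9.43, 9.55 and 9.84 in wild type air. No 2 groups overlapped in either gene, and Limch1 had the largest SD of the 9 genes in wild type smoke (0.24, n = 3).

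In 3 of the 4 groups the genes largely ranked the arrays alike. Wild type air replicate 3 was the highest of its group for 9 of 9 genes and replicate 1 the lowest for 8 of 9. In deficient smoke, replicate 2 was the highest for 8 of 9 and replicate 1 the lowest for 8 of 9, and in deficient air, replicate 2 was the highest for 7 of 9 and replicate 3 the lowest for 7 of 9. Wild type smoke had no such order, with the highest value in replicate 1, 2 and 3 for 3, 1 and 5 genes and the lowest for 3, 5 and 1. The list's mean level was 9.65, 9.75 and 9.89 in the wild type air arrays, and that of 10 alveolar type I markers was 10.62, 10.66 and 10.81 in the same arrays, also highest in replicate 3.

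Smoke was compared with air within the deficient hosts first. This comparison shares no array with smoke against air in wild type hosts, but its results too were known when the genes were chosen. Mfap4 fell by 0.56 ± 0.08 (1.48-fold; limma, adjusted p = 0.00122), and it was the 1 of 9 genes that passed the test, beside 2.41% of all genes in either direction, 1.72% lower and 0.692% higher. The means were 11.42 ± 0.01 in deficient smoke and 11.99 ± 0.06 in deficient air (SD, n = 3 each). The other 8 genes did not pass. Groups did not overlap for 5 of the 9 genes, against 22.7% of all genes.

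Of the 8 genes that did not pass, Tcf21 differed by -0.25 ± 0.09 (adjusted p = 0.272), Inmt by -0.23 ± 0.09 (adjusted p = 0.358) and Pdgfra by 0.18 ± 0.07 (adjusted p = 0.289) in limma. Array weights put Tcf21 and Pdgfra just past the limit, and a fit of these 6 arrays alone did so for Inmt (values in the closing section). For Npnt the difference was 0.0078 with a 95% interval from -0.16 to 0.17, for Tbx4 0.015 with -0.19 to 0.22 and for Tbx5 -0.00082 with -0.22 to 0.21. Intervals for Fgf10 (-0.31 to 0.12) and Limch1 (-0.39 to 0.12) also included 0. Those for Tcf21 (-0.44 to -0.053), Inmt (-0.42 to -0.029) and Pdgfra (0.035 to 0.32) did not, but these intervals are not adjusted over genes.

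Among genes around this pathway, Foxf1, a forkhead factor of the lung mesenchyme and target of hedgehog signals, fell by 0.42 ± 0.09 in deficient smoke against deficient air (limma, adjusted p = 0.0241). Pdgfrb, the PDGF receptor of pericytes, rose by 0.29 ± 0.06 (limma, adjusted p = 0.0151). Both calls depended on single arrays. That of Foxf1 was lost without any 1 of the deficient arrays but deficient smoke replicate 2, and with quantile normalization (limma, adjusted p 0.0557 to 0.126). That of Pdgfrb was lost without deficient air replicate 2 or 3 or deficient smoke replicate 2 or 3 (limma, adjusted p 0.0589 to 0.0798). In all, 1 of 23 measured FGF10, PDGF and hedgehog signalling partners rose and 2 fell. Of 31 other lung fibroblast markers 2 rose and none fell, and of 16 elastic fibre genes 2 rose and none fell. These small counts moved with the setting: 1 to 7 signalling partners, 1 to 10 fibroblast markers and 1 to 6 elastic fibre genes were called over all settings, and 1 to 6, 1 to 7 and 1 to 4 when 1 array was left out. The elastic fibre gene Fbln5, at -0.33 ± 0.09, did not pass (limma, adjusted p = 0.0841), but did in 5 of 21 settings, with an adjusted p from 0.00726 to 0.333 over all of them.

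Host genotype was compared next in air. The wild type air arrays also entered the comparison used to notice the genes, so the p-values below are not independent of that choice. Tcf21 was higher in deficient air by 1.61 ± 0.09 (3.06-fold; limma, adjusted p = 5.46e-08), with means of 10.78 ± 0.04 in deficient air and 9.17 ± 0.18 in wild type air (SD, n = 3 each). Tbx5, Mfap4 and Limch1 were higher by 1.00 ± 0.10, 0.98 ± 0.08 and 0.93 ± 0.12 (limma, adjusted p = 3.94e-06, 5.33e-07 and 3.33e-05). Inmt and Tbx4 were higher by 0.84 ± 0.09 and 0.81 ± 0.10, Npnt by 0.63 ± 0.08 and Pdgfra by 0.33 ± 0.07 (limma, adjusted p = 0.00114). Fgf10 did not pass (0.061 ± 0.10, 95% interval -0.15 to 0.27, adjusted p = 0.692).

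In that comparison 8 of 9 genes were called higher and none lower, beside 38.5% of all genes called, 20.5% higher and 18% lower. Groups did not overlap for 8 of 9, beside 51.9% of all genes. Their median difference was 0.84, while the median of all genes was -0.03. Of all genes called in either direction, 53.2% were higher as deposited and 39.6% with each array centred on its median, and the 8 calls held in both. These counts and p-values share the wild type air arrays with the comparison used to notice the genes. They stand as a description of the same arrays, and no conclusion is drawn from them.

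Under smoke the gap between genotypes was wide for most of the genes. It is described without a test, since the genes were noticed for low values in the same wild type smoke arrays. Inmt was higher in deficient smoke by 4.57 ± 0.09 (23.7-fold), with means of 13.39 ± 0.05 in deficient smoke and 8.83 ± 0.19 in wild type smoke (SD, n = 3 each). Npnt was higher by 4.12 ± 0.08 (17.4-fold), Limch1 by 3.81 ± 0.12 (14.0-fold) and Tcf21 by 3.77 ± 0.09 (13.6-fold). Tbx5, Tbx4 and Mfap4 followed with 2.70 ± 0.10, 2.67 ± 0.10 and 2.20 ± 0.08. Fgf10 and Pdgfra had the smallest gaps, 0.98 ± 0.10 and 0.80 ± 0.07.

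For all 9 genes every deficient smoke array lay above every wild type smoke array, a count that the choice of genes largely fixed and from which nothing is read. Over all genes 61.3% had no overlap in this comparison, and 59.6% were called, 22.7% higher and 37% lower. The median difference of the 9 was 2.70 against -0.14 over all genes. Of the genes called, 38.0% were higher as deposited and 22.9% with median centring. Only 29 of 19937 genes had a larger positive difference than Inmt, and 41 a larger one than Npnt.

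Smoke against air in wild type hosts is described without a test for the same reason. The log2 differences were -3.95 ± 0.09 for Inmt, -3.48 ± 0.08 for Npnt, -3.01 ± 0.12 for Limch1 and -2.40 ± 0.09 for Tcf21. Those of Tbx4, Mfap4 and Tbx5 were -1.84 ± 0.10, -1.78 ± 0.08 and -1.70 ± 0.10, those of Fgf10 and Pdgfra -1.02 ± 0.10 and -0.29 ± 0.07. In all 9 genes every smoke array lay below every air array, as in 16.2% of all genes, and 36.9% of all genes had no overlap in either direction. By the test, 29% of all genes were called, 14% lower and 15% higher, and nothing is read from these shares here. Inmt had 12 genes below it and Npnt 24 when all genes were ordered by this difference, while Fgf10 had 631 and Pdgfra 2444.

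The smoke difference in deficient hosts lay above that in wild type hosts for all 9 genes, by 3.73 ± 0.13 for Inmt, 3.49 ± 0.11 for Npnt, 2.87 ± 0.17 for Limch1 and 2.15 ± 0.13 for Tcf21, down to 0.92 ± 0.14 for Fgf10 and 0.46 ± 0.09 for Pdgfra. These values contain the wild type smoke difference and were not tested.

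**Figure D2:**
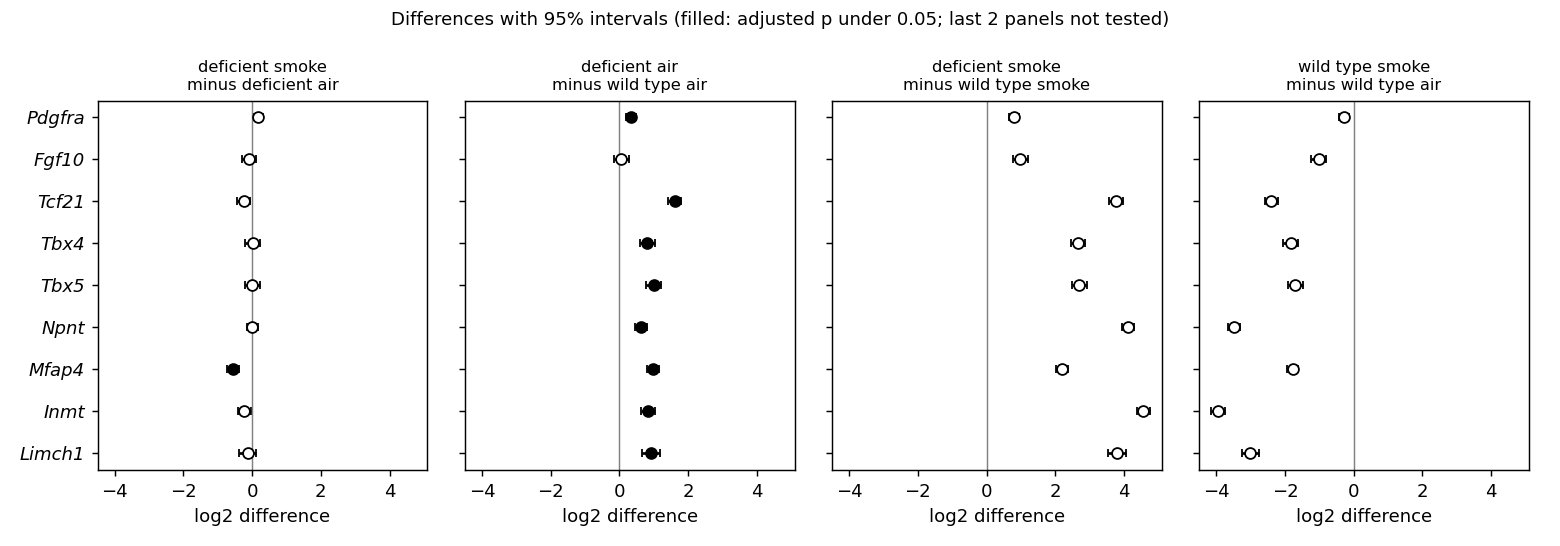
Log2 differences (horizontal axes) of the 9 genes in 4 comparisons, with 95% intervals from limma. Filled points passed the test in the first 2 panels, and the last 2 panels were not tested. The genes lie between -0.25 and 0.18 for smoke in deficient hosts apart from Mfap4 at -0.56, and between 0.80 and 4.57 for genotype under smoke.

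**Figure D3:**
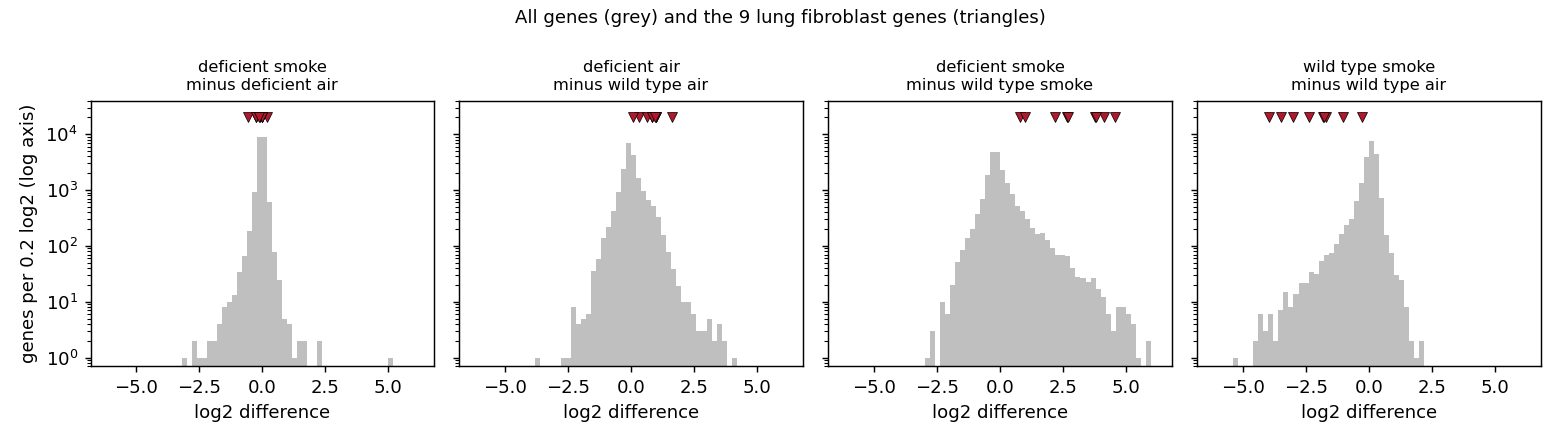
Number of genes (vertical log axis) by log2 difference (horizontal axes, bins of 0.2) in the same 4 comparisons, with triangles for the 9 genes. In the genotype comparison under smoke the triangles spread over the right flank, and in smoke against air in wild type hosts over the left flank. In smoke against air in deficient hosts they lie between -0.56 and 0.18, with Mfap4 lowest (167 of 19937 genes lay below it), while Tcf21 and Inmt had 857 and 990 genes below them and Pdgfra 975 above it.

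Markers of several other lung cell types moved with these genes in the same arrays, and those of some types less so. The mean level of 10 alveolar type I markers was 11.29 to 11.43 in the deficient smoke arrays, 11.39 to 11.45 in deficient air, 8.55 to 8.72 in wild type smoke and 10.62 to 10.81 in wild type air. Their median difference between wild type smoke and wild type air was -1.88, against -1.84 for the 9 fibroblast genes. In deficient air against wild type air all 10 were called higher, with a median of 0.80, against 0.84 for the fibroblast genes.

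The medians of wild type smoke minus wild type air were -2.13 for 11 alveolar type II markers, -3.51 for 8 club cell markers, -1.13 for 14 endothelial markers and -1.91 for 8 cardiac muscle markers. For deficient smoke minus wild type smoke they were 3.13, 4.37, 1.99 and 2.81, against 2.70 for the fibroblast genes. Lists of 8 ciliated cell, 7 mesothelial and 12 smooth muscle markers differed less than the fibroblast genes. Their medians were -0.92, -0.55 and -0.39 for wild type smoke minus wild type air. For deficient smoke minus wild type smoke they were 1.61, 0.88 and 0.95. Each of these lists had its lowest mean levels in the wild type smoke arrays, but not every gene followed. In deficient smoke against wild type smoke 8 ciliated cell, 5 mesothelial and 7 smooth muscle markers were called higher. In the same order 0, 2 and 3 were called lower, beside 22.7% of all genes higher and 37% lower. Acta2 averaged 12.01 in deficient smoke and 12.32 in wild type smoke, and the mesothelial marker Bnc1 7.80 and 9.65. The part of these cell types in the fibroblast gene values was not tested. No detection values come with these data, so no marker can be called absent.

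Macrophage markers and mitotic genes went otherwise. The mean of 12 macrophage markers was 9.50 to 9.62 in deficient smoke, 9.60 to 9.68 in deficient air, 9.82 to 9.94 in wild type smoke and 8.96 to 9.21 in wild type air. The mean of 11 mitotic genes was 8.34 to 8.92 in deficient smoke, 8.49 to 8.72 in deficient air, 10.01 to 10.14 in wild type smoke and 9.66 to 9.83 in wild type air. Mitotic genes were thus lower in both deficient groups, where the fibroblast genes were highest. Their part in the fibroblast gene values was not tested.

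Other fibroblast and matrix genes did not all follow the 9 genes. Of 31 other lung fibroblast markers, 25 were called higher and 5 lower in deficient air against wild type air, and 25 higher and 4 lower in deficient smoke against wild type smoke, with medians of 0.65 and 1.56. Decorin, Dcn, a collagen-binding proteoglycan, had a difference of -0.25 ± 0.09 for deficient air minus wild type air (limma, adjusted p = 0.031), with means of 11.66 in deficient air and 11.91 in wild type air. Its call was lost without wild type air replicate 2 or 3 or deficient air replicate 1 or 2 (limma, adjusted p 0.0647 to 0.133). Serpinf1, which encodes pigment epithelium-derived factor, had one of -1.32 ± 0.10, with means of 9.82 in deficient air and 11.14 in wild type air. Dpt was also lower in deficient air, at -0.86 ± 0.08. Cd34, a surface protein of adventitial fibroblasts and endothelium, was higher there by 0.60 ± 0.08. These 4 were the brightest of the list. For deficient smoke minus wild type smoke, Dcn differed by -0.69 ± 0.09 and Serpinf1 by -1.39 ± 0.10. Dpt differed by 0.04 ± 0.08 and Cd34 by 0.83 ± 0.08 in that comparison.

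Genes of tumour-associated fibroblasts went both ways. In deficient air against wild type air 8 of 20 were called higher and 8 lower (median 0.076), and in deficient smoke against wild type smoke 10 were called higher and 9 lower (median 0.076). The collagen gene Col3a1 was lower in the deficient groups, at 11.23 ± 0.12 in deficient smoke and 11.10 ± 0.18 in deficient air, against 12.74 ± 0.02 in wild type smoke and 12.50 ± 0.11 in wild type air (SD, n = 3 each). Acta2, smooth muscle actin, had 12.01, 12.11, 12.32 and 11.79 as means of deficient smoke, deficient air, wild type smoke and wild type air.

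Partners of the 9 genes gave mixed patterns. Of 12 partners of nephronectin, among them integrin chains and basement membrane genes, 4 were called higher and 5 lower in deficient smoke against wild type smoke (median 0.060). Nid1 and Itgav were lower there, at -1.09 ± 0.07 and -0.72 ± 0.07. Itga8, the integrin chain that binds nephronectin, averaged 11.17 in deficient smoke and 11.21 in deficient air, against 7.21 in wild type smoke and 10.10 in wild type air. It was higher in deficient smoke than in wild type smoke by 3.96 ± 0.08, where Npnt differed by 4.12. Its partner Itgb1, made by nearly all cells, averaged 12.09, 12.13, 12.05 and 12.11 in deficient smoke, deficient air, wild type smoke and wild type air.

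Of 13 other T-box genes, 5 were called higher and 3 lower in deficient smoke against wild type smoke, with a median of -0.11. Over all genes 59.6% were called in that comparison. Without deficient smoke replicate 3, 5 T-box genes were called in all. Tbx2 and Tbx3, which are also made in lung mesenchyme, were higher by 2.29 ± 0.10 and 1.86 ± 0.08, while Mga was lower, at -0.24 ± 0.07. Fgfr1, an FGF receptor gene, was lower, with means of 9.68 in deficient smoke and 11.08 in wild type smoke and a difference of -1.40 ± 0.08. Foxf1 averaged 10.89 in deficient smoke and 11.30 in deficient air, against 8.71 in wild type smoke and 10.13 in wild type air.

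Lipid-storing fibroblast genes and elastic fibre genes lay between. Of 9 lipofibroblast genes 8 were called higher and 1 lower in deficient smoke against wild type smoke, with a median of 0.95. Lipoprotein lipase, Lpl, was higher there by 2.34 ± 0.08, while the lipid droplet gene Plin2 was lower, at -0.19 ± 0.07. Of 16 elastic fibre genes 10 were called higher and 3 lower, with a median of 1.33, among them Fbln5 at 1.90 ± 0.09 and Ltbp1 at -0.71 ± 0.07.

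**Figure D4:**
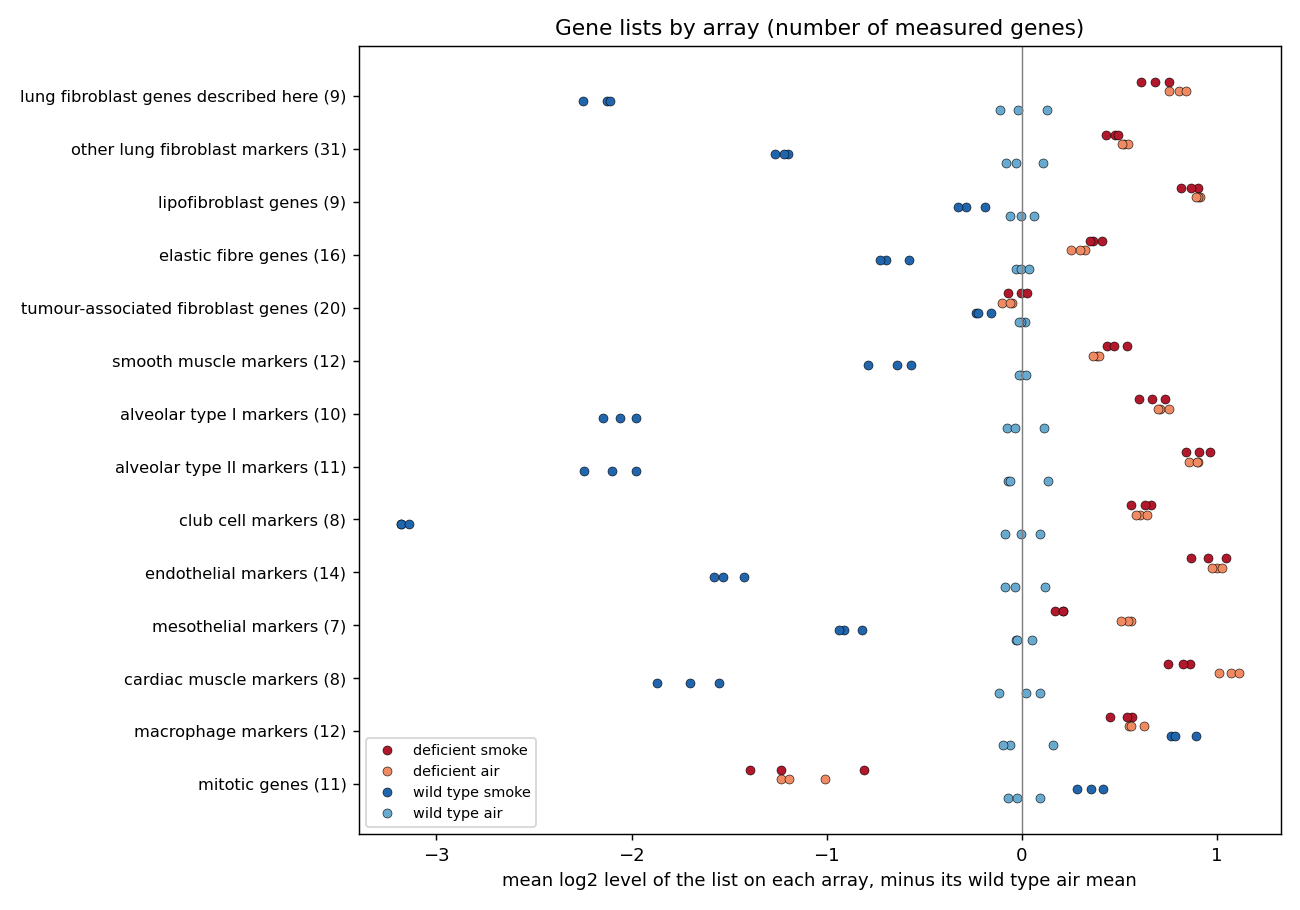
Mean log2 level of each gene list on each array, minus the list's mean in wild type air (horizontal axis), with 1 point an array and the number of measured genes in brackets. The fibroblast genes of this report run beside alveolar and endothelial markers, tumour-associated fibroblast genes stay near 0, and mitotic genes are lowest in the deficient groups.

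Genes with the most similar pattern were found by the root mean square difference over the 12 arrays after each gene was centred on its mean, among 14518 other genes with a mean log2 level of at least 6. Nearest to the mean profile of the 9 genes were Gpm6b (0.086 log2), Crip2 (0.092), Elapor1, Cckar and Gstk1. Npnt lay nearest to Akap5 (0.062), a gene of the alveolar type I list, then to Scgb3a2 (0.126) and Cldn18 (0.130). Tbx4 lay nearest to Emp2 (0.091) and Aqp5 (0.092) of the alveolar type I list, then to Tppp3 (0.096) of the ciliated cell list. The nearest to Limch1 were Postn (0.061), Gpc3 (0.063) and Hsd11b1 of the fibroblast lists. Pdgfra lay nearest to Fndc1 (0.043) and Hipk2 (0.053), Tcf21 to Cdo1 (0.10), Inmt to Mal2 (0.11), Mfap4 to Vsnl1 (0.11), Tbx5 to Tmc4 (0.098) and Fgf10 to Fads1 (0.12). Among the 9 genes themselves, Tbx4 differed least from the mean of the other 8 (0.17) and Pdgfra most (1.04).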

How the data were processed

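Expression was measured in 12 samples, 4 groups of 3, grouped by the sample titles. The deposited log2 values were made by the authors in Affymetrix Expression Console with RMA (background correction, quantile normalization and probe summary), per the submitters' processing notes. Versions and genome build are not given in the sources used here. Of 34760 probe sets, 21640 named 1 gene by the platform annotation and 1321 named several, which were left out. Where a gene had several probe sets, the one with the highest mean stood for it, giving 19937 genes. Entrez identifiers of the 9 genes matched the GRCm38.p6 gene table without a change of symbol.

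limma 3.58.1 in R 4.3.3 fitted 1 mean per group to all 12 arrays (residual df 8, prior df 4.83), with 2-sided p-values and Benjamini-Hochberg adjustment across the whole table, at a limit of 0.05. For deficient smoke against wild type smoke a test had been planned, but no p-value of the 9 genes is printed, because the genes were noticed in those wild type smoke arrays. Lists are described by counts and medians, with no list test. The genes, the lists (from general knowledge) and the tests were chosen with earlier results of these data known. Named genes were the 9, the 4 brightest of a list, and the nearest by pattern. On simulated data for deficient smoke against deficient air, over 19937 genes, 98 of 100 genes shifted by 1 and 73 of 100 shifted by 0.5 were called, with 8 of 19737 unshifted genes. The settings varied were a filter on dim genes (3 or more arrays at log2 6 or above), the mean of probe sets, an intensity trend, array weights, quantile normalization, median centring, the replicate number as a block, fits restricted to the 6 arrays compared, and each array omitted in turn.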

Additional observations from a re-analysis of the deposited data

Results flagged for a closer look

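Pdgfra moved in opposite directions with smoke in the 2 genotypes. Every deficient smoke array lay above every deficient air array (11.54 to 11.67 against 11.42 to 11.48), while every wild type smoke array lay below every wild type air array (10.78 to 10.87 against 11.04 to 11.22). The smoke difference was 0.18 ± 0.07 in deficient hosts and -0.29 ± 0.07 in wild type hosts, and the gap between them was 0.46 ± 0.09. That gap was not tested, because the wild type comparison was part of how the genes were chosen, and the deficient difference missed the limit by itself (limma, adjusted p = 0.289).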

How the results depend on the processing

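In deficient smoke against deficient air 1 gene was called, against 3 with array weights (Tcf21 at -0.24, adjusted p = 0.0496, and Pdgfra at 0.19, adjusted p = 0.0463, beside Mfap4) and 2 with the 6 arrays alone (Inmt at -0.23, adjusted p = 0.0423). Mfap4 was called in all 21 fits (adjusted p 2e-05 to 0.0099). Over all settings adjusted p ran from 0.0423 to 0.743 for Inmt, 0.0496 to 0.686 for Tcf21 and 0.0463 to 0.673 for Pdgfra. The other count, 8 genes in air between genotypes, kept its value. Medians of the genes in wild type smoke against air, and in the difference between smoke differences, moved by less than the spread between arrays. No count is given under smoke between genotypes, since the genes were noticed in those wild type smoke arrays. Signs turned only for differences near 0: Tbx5 in deficient smoke against deficient air (0.021 with quantile normalization, 0.022 with median centring, -0.076 to 0.051 without 1 array), Fgf10 in deficient air against wild type air (-0.017, -0.015, and -0.033 to 0.13), and Npnt (-0.033 to 0.056) and Tbx4 (-0.052 to 0.057) in deficient smoke against deficient air without 1 array. Median centring moved the median difference of all genes under smoke between genotypes from -0.14 to -0.28 and in wild type smoke against air from 0.08 to 0.17, where Pdgfra moved from -0.29 to -0.20. Array weights moved Inmt, Tbx5 and Limch1 to -4.094, -1.899 and -3.155 in wild type smoke against air. In the difference between smoke differences they moved these genes to 3.869, 1.866 and 3.028. Over all genes, 481 were called in deficient smoke against deficient air, 1368 with array weights and 1018 with the 6 arrays alone, and 261 to 320 when any 1 of the 6 deficient arrays was left out. The 6 arrays alone give no value for the difference between smoke differences. With the replicate block the members' counts stayed at 1 in deficient smoke against deficient air and 8 in air between genotypes. Over all genes, 440 were called in the first of these. Same-numbered arrays correlated in their deviations from -0.363 to 0.365 over 18 pairs, 7 of them over 0.1. Their median r was 0.0455, against -0.013 for arrays of different number. An array correlated best with its own number in 17 of 36 cases. With 3 arrays a group, these mixed values cannot decide whether the numbers pair the samples. No detection values bear on how far dim probe sets limit these differences.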

Other observations

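Some markers of other cell types fell with smoke in deficient hosts, where 1.72% of all genes were called lower. Of 7 mesothelial markers 3 fell and none rose, among them Msln, the mesothelin gene, by 0.82 ± 0.08 (limma, adjusted p = 0.000108), with means of 8.56 in deficient smoke and 9.38 in deficient air. Of 8 cardiac muscle markers 2 fell and none rose, among them the atrial light chain gene Myl4 by 0.46 ± 0.10 (limma, adjusted p = 0.0232), with means of 9.96 in deficient smoke and 10.42 in deficient air. Of 12 macrophage markers 2 fell and none rose. Other lists did not share this: 1 gene rose and none fell in each of the alveolar type II, endothelial and smooth muscle lists. No alveolar type I, club cell, ciliated cell or mitotic gene was called. Over all settings 3 to 4 mesothelial, 1 to 2 cardiac and 1 to 2 macrophage markers were called. Msln was called in all 21 settings (limma, adjusted p 2.65e-06 to 0.00133). Myl4 was not called with quantile normalization or without any 1 of the deficient arrays but deficient air replicate 3 (limma, adjusted p 0.052 to 0.123). Mfap4 fell by 0.56 in the same arrays, and a link with these lists was not tested.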
